A study of Mus musculus with 12 samples.

Results

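The Zfp genes of mouse chromosome 7 are the genes on that chromosome whose symbol is Zfp followed by a digit, for zinc finger protein. In a gene table of the build GRCm38.p6, whose chromosomes are those of mm10, 94 of 49640 genes met this rule, 93 of them protein-coding and 1 (Zfp419) listed as a long non-coding RNA. The gene family was chosen by the number of FLAG-Zscan4 regions listed near its members, so counts of regions at these genes are a description and carry no test. A region was placed at a gene when its midpoint lay in the gene body or within 10 kb on either side.

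The study expressed Zscan4c, itself a SCAN domain protein with zinc fingers, fused to FLAG from a pCMV plasmid, in the mouse embryonic stem cell line J1, whose strain is labelled 12910la. Cells were grown in serum with leukaemia inhibitory factor, and after transfection they were kept for 10 days in 500 ug/ml G418 before monoclonal lines were taken. The values come from 1 immunoprecipitation with an antibody against FLAG in the overexpressing cells, whose labels also give 1 input sample of the same genotype. No sample had a replicate, the plasmid is named for the viral CMV promoter, and 1 clone can differ from another, so the list describes 1 preparation of cells.

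C2H2 zinc finger genes form one of the largest gene families of mammals, and many lie in clusters that grew by tandem duplication. Many of the clustered genes encode a KRAB domain, which recruits the corepressor Trim28, followed by an array of zinc fingers that binds DNA, often in transposable elements. In such genes the fingers are commonly encoded by 1 long last exon. The Zfp symbol also covers proteins of other kinds, such as the RNA-binding protein of Zfp36.

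FLAG-Zscan4 regions lay at 21 of the 94 genes (22.3%, 95% Wilson interval 15.1 to 31.8%). Among the other 1932 protein-coding genes of chromosome 7 the share was 7.35%, and among all 49640 genes used it was 8.89%. Without the families set apart further below, such as olfactory and vomeronasal receptors, 130 of the 1411 remaining protein-coding genes had a region (9.21%). Their median span was 14.7 kb, against 14.8 kb for the Zfp genes. The 21 genes shared 20 distinct regions, 7.84% of the 255 listed on chromosome 7, because 3 regions each lay near a pair of neighbouring Zfp genes and 2 genes had a pair of regions. Of the 20 regions, 12 had their midpoint in the body of 12 different genes and 8 only in a flank. A region in the body was thus held by 12.8% of the 94 genes, against 4.35% of the other protein-coding genes. By the 10 kb rule, 4 of the 20 regions also lay at a protein-coding gene other than these 94. Sequencing depth was unknown, and all intervals cover counting error only.

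A promoter sequence was available for 86 of the 94 genes, with 96 start sites in all. Each RefSeq promoter covers 300 bases, from 250 before to 50 after a start site. A FLAG-Zscan4 region overlapped 1 of these 96 promoters, 0 of 1954 promoters of other protein-coding genes of chromosome 7, and 19 of 21263 protein-coding promoters genome-wide (0.0894%). The 1 member was Zfp27, on the minus strand at chr7:29906055-29906354. Its region (chr7:29906216-29906437, 222 bp, score 47) lay between the listed start sites of the gene, from 95 to 316 bases downstream of one and from 112 to 333 bases upstream of the other. The promoter of the downstream start site is printed 5′ to 3′ on the strand of the gene, with the 139 bases that belong to the region in capitals, because it is where the region meets a start site.
Zfp27: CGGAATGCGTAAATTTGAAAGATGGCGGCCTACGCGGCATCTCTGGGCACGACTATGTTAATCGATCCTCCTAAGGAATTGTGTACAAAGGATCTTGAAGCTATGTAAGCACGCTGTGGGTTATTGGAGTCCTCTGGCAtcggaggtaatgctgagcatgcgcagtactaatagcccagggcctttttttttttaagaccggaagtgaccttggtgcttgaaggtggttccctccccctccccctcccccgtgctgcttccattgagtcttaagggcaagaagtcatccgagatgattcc

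The neighbouring gene Zfp383 lies head to head with Zfp27 on the plus strand, and the same region lay 1.95 kb before its 5′ end.

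The 7-base motif TGCACAC, known for Zscan4, was searched on both strands (the other strand reads GTGTGCA). It occurred in 3 of the 96 promoters (3.13%, 95% Wilson interval 1.07 to 8.79%), a share that does not stand apart from the 3.68% of other protein-coding promoters of chromosome 7 and from the 1444 of all 32851 promoters that hold it. The promoter of Zfp27 printed above was not among the 3. They belonged to Zfp112, Zfp526 and Zfp60, named here after their sequences were seen, and only Zfp60 had a region within 10 kb, at 11.7 kb downstream of its start site. The 61-base stretches around the matches are printed on the strand of each gene, with the motif in capitals, to show the letters that matched. They cover chr7:24112263-24112323 for Zfp112, chr7:25221182-25221242 for Zfp526 and chr7:27731258-27731318 for Zfp60, all on the plus strand.
Zfp112: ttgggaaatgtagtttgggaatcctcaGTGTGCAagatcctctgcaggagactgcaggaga
Zfp526: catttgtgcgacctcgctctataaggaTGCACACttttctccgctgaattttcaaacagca
Zfp60: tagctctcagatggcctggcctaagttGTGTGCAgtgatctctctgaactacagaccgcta

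Base composition was compared next. The median GC content was 55.0% over 24 promoters of genes with a region and 54.3% over 72 promoters of genes without. The Zfp promoters held a median of 14.5 CG dinucleotides, close to the 13 of all protein-coding promoters, and those of the other protein-coding genes of chromosome 7 held 7. The sequence under regions away from promoters was not analysed here.

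Along chromosome 7, 81 of the 94 genes fell into 8 clusters of 3 or more members in which neighbours were less than 1 Mb apart. Clusters are numbered here by their order along the chromosome. The 8 spans, with 10 kb added at each end, covered 6.84 Mb and held 27 regions at 3.95 per Mb (95% exact Poisson interval 2.60 to 5.74). The rest of chromosome 7 held 228 regions at 1.68 per Mb (1.47 to 1.92). Of the 27 regions, 17 lay at a Zfp gene and 10 did not. The windows of Zfp genes (body and flanks) held the 17 at 7.12 per Mb (4.15 to 11.4), which the choice of the family favours, and the remainder of the cluster spans held the 10 at 2.25 per Mb (1.08 to 4.13). With neighbours up to 2 Mb apart, 7 larger clusters covered 16.0 Mb and held 37 regions at 2.31 per Mb.

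Cluster 6 had the highest rate, although its interval overlaps that of every other cluster. It runs from Zfp84 to Zfp146 (chr7:29768552-30169775), packs 15 Zfp genes and no other protein-coding gene into its span, and had 4 regions (9.50 per Mb, 95% exact Poisson interval 2.59 to 24.3). Regions lay in the bodies of Zfp420 (score 14), Zfp27 (score 47) and Zfp74 (score 21), and 8.68 kb upstream of Zfp146 (score 28), whose protein consists almost only of zinc fingers. The midpoint upstream of Zfp146 was inside the long non-coding RNA gene Gm5113. All 4 regions lay at 1 or 2 members, and 5 of the 15 genes had a region. Zfp568, which encodes a KRAB repressor of a placental Igf2 transcript, belongs to the same cluster and had its nearest region 48.2 kb away.

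Cluster 5, from Zfp607b to Zfp36 (chr7:27674661-28379228), came next with 5 regions in 0.725 Mb (6.90 per Mb, 2.24 to 16.1). Of its 9 Zfp genes 3 had a region, and each time the midpoint was inside the gene: Zfp60 (score 23), Zfp626 (score 50) and Zfp780b (score 40). The last gene of the cluster is Zfp36, which encodes tristetraprolin, a CCCH protein that binds AU-rich elements in mRNA and promotes their decay. It had no region within 10 kb, and its nearest was 151 kb away. None of the other 13 protein-coding genes inside this span had a region within 10 kb.

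Clusters 8 and 2 followed, at 5.94 and 4.55 per Mb. In cluster 2, from Zfp787 to Zfp772 (chr7:6131489-7209998), 3 of 10 Zfp genes had a region among 5 in the span. Zfp78 held a wide region of low score in its body (654 bp, score 14) and had a second one 6.89 kb beyond its 3′ end, which was in the body of the next gene, Zfp28 (score 23). Zfp418 had a region 4.87 kb beyond its 3′ end (chr7:7188307-7188551, score 66). In cluster 8, from Zfp553 to Zfp646 (chr7:127233061-127885996), the region with the second highest score at any Zfp gene of chromosome 7 (chr7:127240444-127240849, score 126) lay between Zfp553 and Zfp771. It was 2.45 kb past the 3′ end of the one and 2.35 kb before the 5′ end of the other. Zfp553 had a further region 3.06 kb upstream (score 14), with its midpoint inside Septin1, and the other 8 Zfp genes of this cluster had none.

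In cluster 7, from Zfp788 to Zfp819 (chr7:41633531-43618279), regions lay in Zfp141 (score 32) and Zfp936 (score 29) and 5.81 kb upstream of Zfp658 (score 27). Clusters 3 and 4 had 1 gene with a region each. These were Zfp324, with a region 6.59 kb upstream (score 23), and Zfp61, with a region 0.629 kb beyond its 3′ end (score 19). The midpoint upstream of Zfp324 was inside the long non-coding RNA genes 1810019N24Rik and Gm29638. Cluster 4 holds 14 Zfp genes from Zfp180 to Zfp526 (chr7:24081877-25227876), and 3 regions lay in its 1.17 Mb, 2 of them away from any Zfp gene. Cluster 1 (chr7:4915181-5053723) had no region. Its 6 genes, among them Zfp628, Zfp579, Zfp524 and Zfp865, were the Zfp genes farthest from any region, at 947 to 1004 kb. The span of cluster 1 is 0.159 Mb, and the interval for its rate reaches 23.3 per Mb, so its lack of regions does not separate it from the other clusters.

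**Figure D1:**
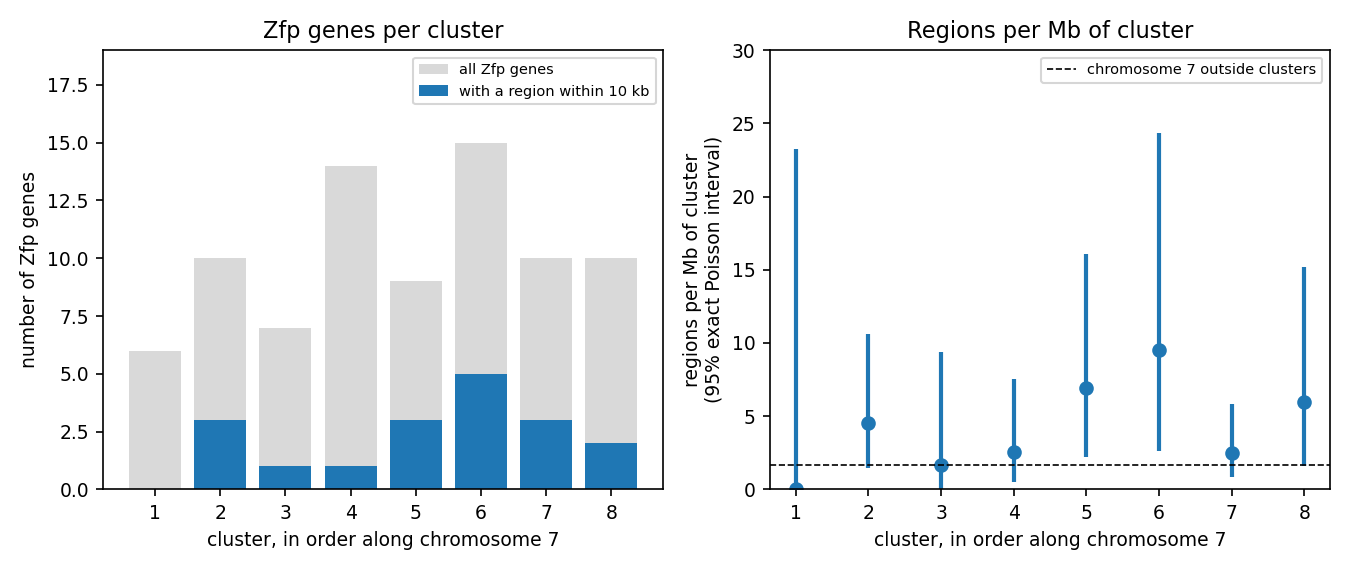
Left, number of Zfp genes in each of the 8 clusters along chromosome 7 (grey) and of those with a FLAG-Zscan4 region in the body or within 10 kb (blue). Right, regions per Mb of cluster span with 95% exact Poisson intervals; the dashed line is the rate of 1.68 per Mb outside the clusters, and cluster 6 has the highest value at 9.50.

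Outside the clusters lay 13 Zfp genes, 3 of them with a region. Zfp473, whose human counterpart is a component of the U7 snRNP that processes histone pre-mRNA, held the region of highest score at any Zfp gene of the chromosome (chr7:44738556-44739186, 631 bp, score 213). That score was the fifth of the 255 on chromosome 7. Zfp536, which encodes a repressor of neuronal differentiation, held a region of score 29 near the middle of its 456 kb body, at 221 kb from the nearest start site. Zfp619 had a region 3.0 kb upstream (score 23). Zfp296, a gene linked to pluripotency, had its nearest region at 91.4 kb. For Zfp143, an activator of small nuclear RNA and other promoters, that distance was 121 kb.

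Within gene bodies the regions were not gathered at the 5′ end. Measured from the 5′ end along the gene, the 12 midpoints ran from 1.83% of the body in Zfp27 to 93.1% in Zfp780b. Near the 5′ end lay those of Zfp27 and Zfp141 (3.27%), the latter 1.03 kb downstream of a start site. Toward the 3′ end lay those of Zfp626 (83.9%), Zfp74 (85.5%), Zfp936 (88.2%) and Zfp780b. The midpoint in Zfp936 was nonetheless 5.35 kb downstream of its nearest listed start site. The other 6 fell between 28.5% (Zfp78) and 57.7% (Zfp60). The gene table gives no exons, so which of these regions lie over the exon of the finger array was not analysed here. Of the 11 pairs of a gene and a flanking region, 7 had the region upstream and 4 downstream. Over all 23 pairs of a gene and a region, 1 midpoint was within 1 kb of a listed start site, that at Zfp27.

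**Figure D2:**
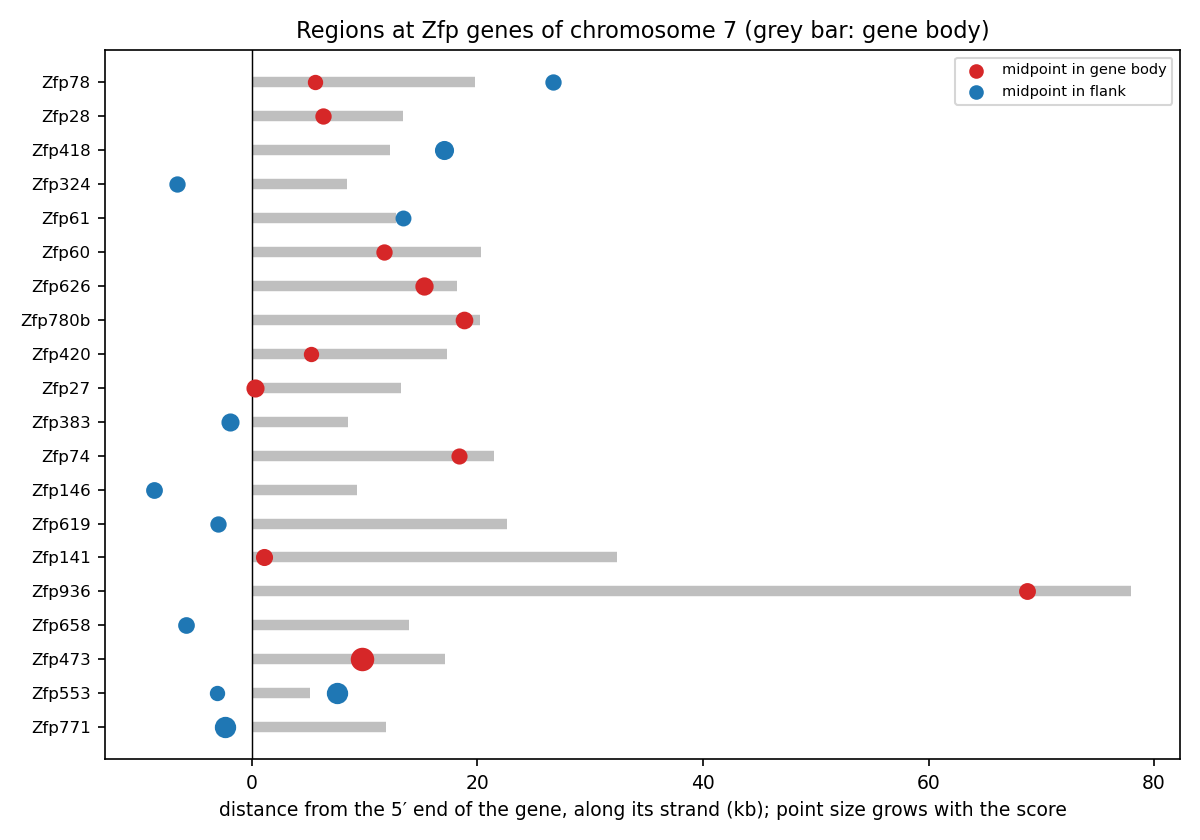
Each line is 1 of the 20 Zfp genes with a region other than the much longer Zfp536, drawn from its 5′ end at 0 kb along its strand (grey bar, gene body). Points are region midpoints inside the body (red) or in the 10 kb flanks (blue), larger for a higher score; the largest is in Zfp473 (score 213), and midpoints lie all along the bodies.

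Across the 94 genes the distance to the nearest region midpoint had a median of 68.7 kb (interquartile range 12.9 to 140 kb), and for the other protein-coding genes of chromosome 7 it was 201 kb (68.8 to 452 kb). A distance over 100 kb was found for 38 Zfp genes (40.4%) and for 66.6% of the others. The choice of the family favours short distances at Zfp genes, and the others include the olfactory and vomeronasal receptor genes. The limit of 10 kb fell between Zfp146, at 8.68 kb, and Zfp94, at 11.3 kb, followed by Zfp940 at 11.5 kb, Zfp93 at 12.6 kb and Zfp772 at 13.7 kb; the last 4 were named by their distance after it was seen. With the limit at 50 kb, 44.7% of the Zfp genes had a region, and 386 of the other 1932 protein-coding genes did. Neighbouring genes share regions at that distance, so 42 genes then stood for 26 regions.

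**Figure D3:**
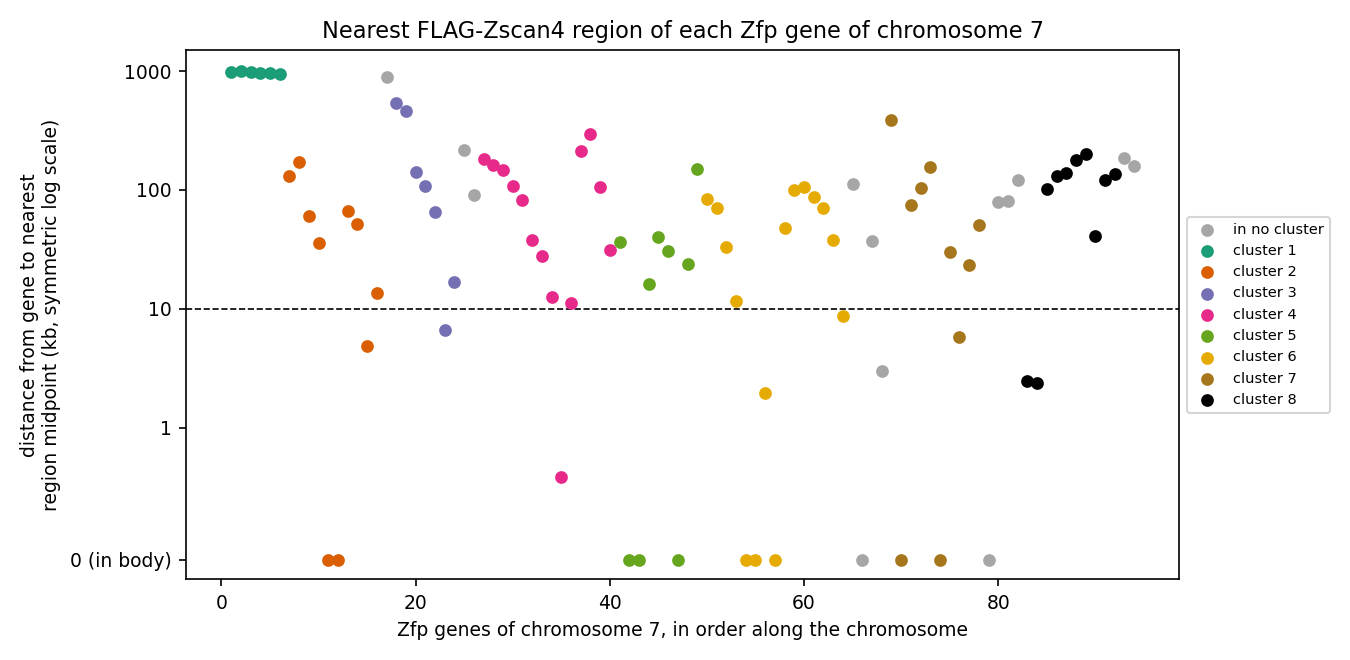
Distance in kb (symmetric log scale) from each of the 94 Zfp genes, in order along chromosome 7, to the nearest region midpoint, coloured by cluster. The dashed line is the 10 kb limit; 12 genes sit at 0 because they hold a midpoint, and the 6 genes of cluster 1 lie highest, at 947 to 1004 kb.

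Because Zfp genes and other genes differ in length, rates per Mb of window were set side by side. The merged windows of the 94 Zfp genes covered 3.42 Mb and held 20 regions, 5.85 per Mb (95% exact Poisson interval 3.57 to 9.04). Windows of the other 4058 genes of chromosome 7, without sequence shared with a Zfp window, held 175 regions in 103 Mb, 1.70 per Mb (1.46 to 1.97). Sequence outside any gene window held 1.66 per Mb (1.27 to 2.14). The rate at Zfp genes was 3.44 times that at other genes (95% exact interval 2.05 to 5.47), and when each cluster was left out in turn, a setting added after the data were seen, this ratio ran from 3.10 to 3.63. These intervals treat regions as independent and take no account of the choice of the family by its count.

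By distance from Zfp genes the rate was highest in the genes and their near flanks, where the choice of the family favours it. It was 5.81 per Mb in the gene bodies (3.0 to 10.1) and 5.92 in the 10 kb flanks (2.55 to 11.7). From 10 to 50 kb away it was 1.95 (0.716 to 4.25), from 50 to 100 kb it was 1.67 (0.544 to 3.91), and from 100 to 500 kb it was 2.43 (1.76 to 3.28). Beyond 500 kb from any Zfp gene 181 regions were listed at 1.57 per Mb (1.35 to 1.82). The intervals of the flanks and of the next shell overlap.

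The shares were also set side by side by class of gene span. The other protein-coding genes here include the 239 olfactory and 176 vomeronasal receptor genes, of which few had a region. The Zfp family was chosen by its count, so these shares are a description. Among genes with a span of 10 to 20 kb, 10 of 36 Zfp genes (27.8%, 95% Wilson interval 15.8 to 44.0%) and 18 of 360 other protein-coding genes (5.00%, 3.19 to 7.76%) had a region. Below 10 kb these were 4 of 28 (14.3%, 5.70 to 31.5%) and 25 of 970 (2.58%, 1.75 to 3.78%), but in that class the median span was 6.89 kb for Zfp genes and 2.55 kb for the others. Between 20 and 40 kb they were 5 of 24 (20.8%) and 30 of 287 (10.5%), and above 40 kb 2 of 6 (33.3%) and 69 of 315 (21.9%), with overlapping intervals in both classes.

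**Figure D4:**
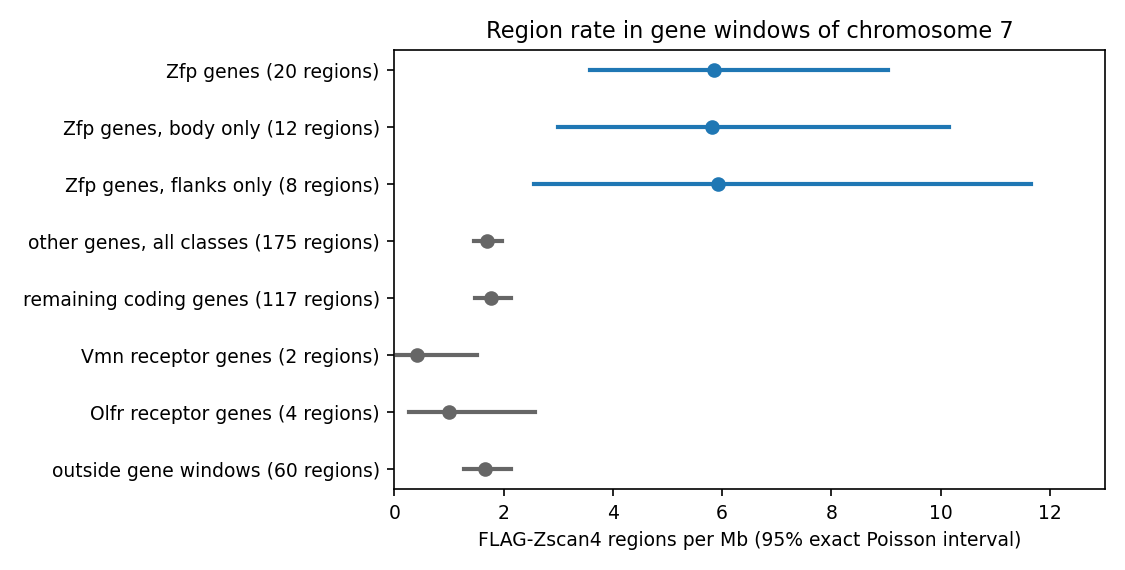
FLAG-Zscan4 regions per Mb of merged gene window (body and 10 kb flanks unless stated) on chromosome 7, as points with 95% exact Poisson intervals; Zfp genes in blue, other windows in grey. The Zfp gene rates lie between 5.81 and 5.92 per Mb, and the other rates drawn lie at or below 1.78. Smaller groups with 0 to 3 regions each are not drawn. Their rates run from 0 (Klk and Nlrp) to 11.4 per Mb (Obox), with 4.73 for other zinc finger names and 4.46 for Zscan.

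Chromosome 7 also carries other families that grew by tandem duplication. Of 239 olfactory receptor genes (Olfr) 4 had a region (1.67%, 1.01 per Mb, 95% exact Poisson interval 0.275 to 2.58). Of 176 vomeronasal receptor genes (Vmn) 2 had one (1.14%, 0.417 per Mb, 0.0505 to 1.51). The rate of 5.85 per Mb at Zfp genes rests on the count the family was chosen by, so nothing is read from its distance to these. Smaller groups rest on 0 to 3 regions each. The 6 Obox genes, homeobox genes of the early embryo, had 1 gene with a region and 11.4 regions per Mb (1.38 to 41.2). Of 6 genes with other zinc finger names such as Peg3, 1 had a region (4.73 per Mb), as did 1 of 8 Zscan genes (4.46 per Mb). Of 28 Psg and Ceacam genes 2 had one (3.21 per Mb), and of 19 Mrgpr genes 1 did (1.89 per Mb). No region was listed at the 26 Klk and the 13 Nlrp genes. The intervals of all these smaller groups except Klk and Nlrp reach above 9 per Mb, and they do not place the groups above or below the Zfp genes. How the authors treated reads that map to several copies of a repeated gene was not found among the labels and file, and its part in these counts was not tested.

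On the other chromosomes 51 of 322 Zfp genes had a region (15.8%, 95% Wilson interval 12.3 to 20.2%), and 12.6% did so without chromosome 4 (9.27 to 16.9%). The share on chromosome 7 has an interval that overlaps both. Chromosome 4 stood highest among chromosomes with 20 or more Zfp genes, with 14 of 28 genes (50%, 32.6 to 67.4%) and 33 regions at 15.3 per Mb. Chromosome 13 had 8 of 39 genes (20.5%), close to the 22.3% of chromosome 7. The other chromosomes of that size class were lower: chromosome 17 had 5 of 47 (10.6%), chromosome 9 had 2 of 20 (10%), chromosome 11 had 2 of 23 (8.70%), chromosome 8 had 2 of 27 (7.41%) and chromosome 2 had 2 of 30 (6.67%). Their rates ran from 1.09 per Mb on chromosome 2 to 4.11 on chromosome 17. Chromosome 13 had 4.17 per Mb, against 5.85 on chromosome 7. Chromosomes with fewer Zfp genes ran from 0%, as on X (0 of 10), to 40% on chromosome 3 (2 of 5, 11.8 to 76.9%). The 7 regions at Zfp genes of chromosome 3 gave 18.2 per Mb, in windows of only 0.384 Mb. Chromosome 18 had 4 of 11 (36.4%, 15.2 to 64.6%), and chromosomes 5 and 6 had 3 of 19 each (15.8%). Other protein-coding genes of the same chromosome had a share of 11.6% on chromosomes 3, 4 and 13, 16.6% on chromosome 8 and 11.0% on chromosome 2. That share was 14.6% on chromosome 18, 12.9% on chromosome 5, 11.8% on chromosome 6 and 11.2% on chromosome 9. On chromosome 11 it was 9.99%, and on chromosome 17 it was 9.88%. The 7.35% on chromosome 7 was the lowest of the autosomes, and the genes behind it include the 239 Olfr and 176 Vmn genes. As the family of chromosome 7 was chosen by its count, these shares and rates are a description.

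The regions at Zfp genes were mostly of modest score. Scores are the authors' own, on an unstated scale, and were used only for ranks within the list. The 20 scores ran from 14 to 213 with a median of 27.5 (interquartile range 22.5 to 41.8), and the 235 other regions of chromosome 7 had a median of 32 (23 to 52.5). The median score of the whole list, 33, was reached by 6 of the 20 (30%, 95% Wilson interval 14.5 to 51.9%) and by 49.4% of the other chromosome 7 regions (43.0 to 55.7%), so the intervals overlap. Those 6 lay at Zfp473, between Zfp553 and Zfp771, and at Zfp418, Zfp626, Zfp27 and Zfp780b. Median widths were 292 bp at Zfp genes and 293 bp elsewhere, with upper quartiles of 392 and 461.5 bp. The widest were 654 bp at Zfp78 and 2567 bp elsewhere. None of the 20 had another region midpoint within 10 kb, and 18 of the other 235 did (7.66%), a share too small to show a difference in 20 regions.

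With regions at or above the median score alone, 8 Zfp genes had a region, and the ratio of rates to other gene windows was 2.03 with an interval of 0.725 to 4.59. The regions of higher score at Zfp genes are part of the count the family was chosen by. The ratio and its interval are therefore a description and carry no test.

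**Figure D5:**
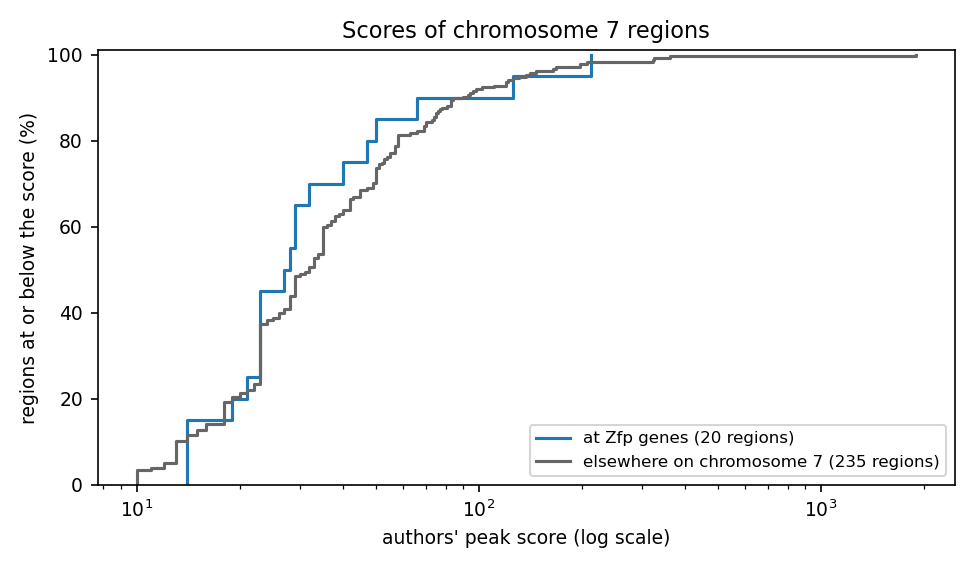
Cumulative share (%) of regions at or below each authors' peak score (log scale) for the 20 regions at Zfp genes and the 235 elsewhere on chromosome 7. The median is 27.5 at Zfp genes and 32 elsewhere, and the 1 region above a score of 361 is elsewhere.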

How the data were processed

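The labels describe 12 samples in 12 groups of 1, and the analysis used the list of FLAG-Zscan4 regions. Per the submitters' processing notes the build was mm10 and the tools included MACS2, Bowtie2, deepTools and cutadapt, with no versions, thresholds or control stated. The score was deposited by the authors as 1 whole number per region, with no scale stated. Start positions, deposited by the authors counted from 0, are printed counted from 1. The list gives no counts, and a gene without a region is not shown to be unbound. The histone mark samples were not analysed here.

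Genes came from a RefSeq table of GRCm38.p6 (49640 of 49997, since 17 had no chromosome in use and 340 started below 3 Mb), and strands, start sites and sequences from a RefSeq promoter table of the same build. Counting used Python 3.11.15 with pandas 2.3.3 and scipy 1.17.1 and was tested on simulated regions. The region numbers on chromosome 7 run without a gap. Members, lists and settings were chosen with earlier results of these data known. Genes were named if they held a region in the body, had a pair of regions, or were at one of the 10 regions of highest score at members. Also named were 4 genes of a cluster without regions, genes of known role (Zfp568, Zfp296, Zfp36, Zfp143), and others where said. No protein sequences were used, so zinc fingers were not counted. Alternatives were other flanks, overlap by 1 bp, higher scores, merging within 1 kb, protein-coding genes only and other cluster limits.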

Additional observations from a re-analysis of the deposited data

How the results depend on the processing

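Of 64 alternatives, 50 stayed within 1.5 times the main count or within the interval of the main rate or ratio. These include overlap by 1 bp, merging within 1 kb, protein-coding genes only, the number of regions in clusters under other cluster limits, and each cluster left out in turn, which gave 16 to 21 genes with a region and was added after the data were seen. No cluster held more than 5 of the 21 genes, so leaving 1 out could not take that count beyond 1.5 times. Keeping protein-coding genes only drops 1 Zfp gene, Zfp419, which had no region. None of the 20 regions at Zfp genes had another midpoint within 10 kb, so merging within 1 kb could not change them. Leaving out a cluster, keeping protein-coding genes only and merging are therefore no check on the counts at Zfp genes. Joining neighbours up to 2 Mb apart lowered the rate in clusters from 3.95 to 2.31 per Mb, since the spans grew from 6.84 to 16.0 Mb. That rate is below the interval of the main one (2.60 to 5.74), so only the number of regions stayed. In the gene body only, 12 genes and 12 regions counted in place of 21 and 20, and within 50 kb 42 genes did. With regions at or above the median score, 8 genes and 6 regions counted, 9 regions lay in clusters in place of 27, the rates were 1.76 per Mb at Zfp genes and 0.866 at other genes, and their ratio was 2.03. At or above the upper quartile these values were 4 genes, 3 regions, 4 in clusters, 0.878 and 0.379 per Mb, and the ratio of 2.31 had an interval of 0.457 to 7.28. Fewer regions by construction lower the counts and rates, while the cause of the lower ratio was not tested. No paired analysis was possible because every group has 1 sample. Without replicates or depth, differences between preparations of cells were not measured.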
